A study of Oryctolagus cuniculus with 24 samples.

Results

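PALLD, MLANA, ASPA, CLEC7A, CTBS and LMNA are 6 of the 28871 genes measured in cultured rabbit blood mononuclear cells, and 6 of the 9508 that carry a gene symbol. They were picked because their signal was low in cells stimulated with lipopolysaccharide (LPS) for 24 hours compared with mock-stimulated cells of the same age. That contrast therefore describes them and cannot test them, and every contrast that reuses the arrays of either of those groups is given for these 6 genes without a p-value. PBMCs (peripheral blood mononuclear cells) came from the blood of adult New Zealand White rabbits, all female and labelled 1, 2, 4 and 5, and were cultured with a buffer alone (mock), with LPS at 1 µg/mL, or with PMA at 10 ng/mL plus ionomycin at 1 µg/mL. Cells were harvested 4 hours (T4) or 24 hours (T24) later, so that each of the 6 groups held 4 arrays, 1 for each rabbit, and all 6 cultures of a rabbit shared 1 donor animal. LPS acts on cells as a bacterial signal, whereas PMA combined with ionomycin bypasses surface receptors by mimicking diacylglycerol and raising intracellular calcium. PBMCs are a mixture of lymphocytes and monocytes, and no cell type was separated before RNA extraction, so fewer cells of a type and less RNA per cell cannot be told apart in these data.

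The members have different known roles. CLEC7A encodes Dectin-1, a C-type lectin of myeloid cells that binds beta-glucans of fungal walls and signals through the kinase SYK. CTBS encodes chitobiase, a lysosomal glycosidase that cleaves the chitobiose core left over from N-linked glycans. ASPA encodes aspartoacylase, the enzyme that splits N-acetylaspartate into aspartate and acetate and is best known from the brain. MLANA encodes Melan-A, a melanosome protein and a classical target of the transcription factor MITF in pigment cells. PALLD encodes palladin, an actin-binding scaffold of stress fibres and podosomes, and LMNA encodes the A-type lamins of the nuclear lamina. Blood monocytes left in culture attach, enlarge and take on features of macrophages, with growth of the lysosomal and cytoskeletal compartments, while LPS is sensed through CD14 and TLR4 and switches on NF-kappaB-driven inflammatory genes.

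The values rest on 17 probes of 60 bases, whose sequences are shown because they define what each value measures. PALLD and MLANA had 5 probes each, shifted by a few bases along the same stretch of transcript, so their agreement is not independent evidence. In the PALLD probe below, capitals mark the 50 bases that all 5 probes share, and in the MLANA probe they mark the 56 bases shared by all 5. The 3 CLEC7A probes follow each other along the transcript, and capitals there mark the bases a probe shares with its neighbour. The remaining probes, 2 for CTBS and 1 each for ASPA and LMNA, have no overlap to mark.
PALLD probe: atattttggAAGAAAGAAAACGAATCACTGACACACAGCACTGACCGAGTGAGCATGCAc
MLANA probe: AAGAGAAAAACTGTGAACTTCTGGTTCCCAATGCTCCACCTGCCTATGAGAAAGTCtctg
ASPA probe: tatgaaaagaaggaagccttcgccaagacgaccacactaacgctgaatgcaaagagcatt
CLEC7A upstream probe: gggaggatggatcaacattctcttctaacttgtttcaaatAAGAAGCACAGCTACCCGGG
CLEC7A middle probe: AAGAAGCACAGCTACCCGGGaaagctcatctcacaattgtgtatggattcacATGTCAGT
CLEC7A downstream probe: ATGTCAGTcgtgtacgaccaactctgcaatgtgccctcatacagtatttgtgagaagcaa
CTBS upstream probe: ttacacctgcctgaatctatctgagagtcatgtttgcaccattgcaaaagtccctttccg
CTBS downstream probe: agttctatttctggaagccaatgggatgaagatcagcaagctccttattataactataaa
LMNA probe: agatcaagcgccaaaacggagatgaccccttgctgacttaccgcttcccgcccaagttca

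The array files place these probes on the rabbit build oryCun2. The PALLD probe lies on the plus strand at chr2:47007044-47007591, which is 548 bases of genome for a 60-base probe, so 488 genomic bases inside that interval are absent from the probe. The MLANA probe lies on the minus strand at chr1:48272199-48274067 and skips 1809 genomic bases. The CLEC7A upstream probe, at chr8:28713737-28716426 on the plus strand, skips 2630 bases, and the CTBS upstream probe, at chr13:80364775-80365164 on the plus strand, skips 330. Such probes match spliced transcripts, since their 60 bases are contiguous only once the skipped interval is removed. The others are uninterrupted, with ASPA at chr19:14918465-14918524 (minus strand), the CLEC7A middle and downstream probes at chr8:28716407-28716466 and chr8:28716459-28716518 (plus strand), the CTBS downstream probe at chr13:80365232-80365291 (plus strand) and LMNA at chr13:36729796-36729855 (minus strand). The LMNA probe has no gene symbol in the files and was named from its description there, lamin A. Exon and UTR boundaries were not analysed here.

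A level below is the log2 of the median Cy3 signal of a probe minus the median of all non-control spots of that array, averaged over the probes of the gene. A level of 0 is thus the median spot, and a difference of 1 between groups is a 2-fold change. The local background was not subtracted, so differences are compressed when a gene is close to background, and levels of different genes were not compared. A gene counted as measured on an array when most of its probes were well above background by the scanner software's own test. Between 51.4 and 62.3% of the spots of an array passed that test, and all pairs of the 24 arrays correlated over genes at 0.908 to 0.994. The labels call the cells PBMCs, and the monocyte gene CD14 and the B cell gene CD79B were well above background on every array. The T cell gene CD3E was not analysed here, and 10 of the 11 other T cell marker genes measured were above background on at least 1 array.

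CLEC7A was low in all cultures at T4, higher in mock cultures at T24, and at T24 overlapped its T4 levels in LPS cultures and lay below them in PMA-Ionomycin cultures. For rabbits 1, 2, 4 and 5, in this order throughout, the mock level was 0.08, 0.67, 0.22 and -0.71 at T4 and 1.72, 2.33, 3.30 and 2.72 at T24. With LPS it was -0.15, -0.01, -0.25 and -0.95 at T4 and 0.32, 0.15, -0.43 and -0.59 at T24. Every T24 mock value lay above every value of the other 5 groups, and the LPS values at T24 overlapped those of mock cells at T4. With PMA-Ionomycin it was -0.06, 0.11, 0.18 and -0.58 at T4 and -1.16, -1.06, -1.28 and -1.12 at T24, where no array was well above background. All 4 of those T24 values lay below every other CLEC7A value in the data.

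CTBS was likewise highest in mock cells at T24, and was well above background on all 24 arrays. Mock cells had levels of 2.93, 3.27, 2.75 and 2.29 at T4 and of 4.07, 5.44, 6.55 and 5.69 at T24. LPS cells had 2.72, 3.03, 2.86 and 1.90 at T4 and 3.30, 3.58, 2.94 and 2.61 at T24. The mock group at T24 stood clear of all others, and the LPS group at T24 overlapped both T4 groups. PMA-Ionomycin cells had 2.29, 2.12, 2.68 and 2.18 at T4 and 3.0, 2.89, 2.48 and 2.18 at T24, again within the range of the T4 cultures.

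ASPA was close to background in every group except mock cells at T24. Mock levels were -0.77, -0.97, -0.47 and -0.95 at T4, on no array well above background, and 0.59, 0.78, 2.76 and 2.86 at T24, on all 4 arrays well above it. LPS cells had -0.76, -0.24, -0.42 and -0.91 at T4 (1 array of 4 above background) and -0.48, -0.51, -0.58 and -0.96 at T24 (3 of 4). PMA-Ionomycin cells had -0.95, -0.65, -0.85 and -1.02 at T4 and -0.54, -0.65, -0.97 and -1.22 at T24, with 0 and 1 arrays above background. The 5 low groups overlapped their neighbours in the order of means, and the mock values at T24 split into a lower pair, from rabbits 1 and 2, and a higher pair, from rabbits 4 and 5.

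MLANA was low in every group except mock cells at T24, and intermediate in the stimulated cells of that time. Its mock levels were 0.35, 0.25, 0.11 and 0.24 at T4 and 3.01, 3.93, 4.85 and 4.50 at T24. With LPS it stood at 0.53, 0.30, 0.07 and 0.46 at T4 and at 1.32, 1.40, 0.91 and 0.50 at T24. With PMA-Ionomycin it stood at 0.47, 0.33, 0.17 and 0.48 at T4 and at 1.14, 0.92, 0.69 and 1.01 at T24. The stimulated groups at T24 overlapped each other, lay above mock cells at T4 without overlap, and lay below every mock value at T24. MLANA was well above background on every array, T4 included.

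PALLD was high at T24 in PMA-Ionomycin cultures as well as in mock cultures. It was not well above background on any T4 array, with levels between -0.80 and -0.46 in all 12 of these cultures. At T24 the mock levels were 1.86, 3.02, 4.33 and 4.33, the LPS levels -0.23, -0.11, -0.12 and 0.87, and the PMA-Ionomycin levels 2.49, 2.96, 2.86 and 1.51. Mock and PMA-Ionomycin groups overlapped, while the LPS group lay apart from both and only a little above T4, with rabbit 5 higher than the other LPS cultures.

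LMNA had another course. Mock levels were 6.66, 7.14, 7.29 and 6.33 at T4 and 6.65, 6.68, 6.63 and 6.34 at T24, without the higher late level of the other members. LPS levels were 6.14, 5.92, 5.30 and 5.60 at T4 and 5.25, 5.18, 5.19 and 6.38 at T24. The LPS group at T4 lay below all mock values, whereas at T24 the culture of rabbit 5 was as high as its mock control and the other 3 were below all mock values. PMA-Ionomycin levels were 6.32, 6.30, 6.70 and 6.37 at T4 and 6.09, 5.70, 6.11 and 6.70 at T24, overlapping mock cells at both times.

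**Figure D1:**
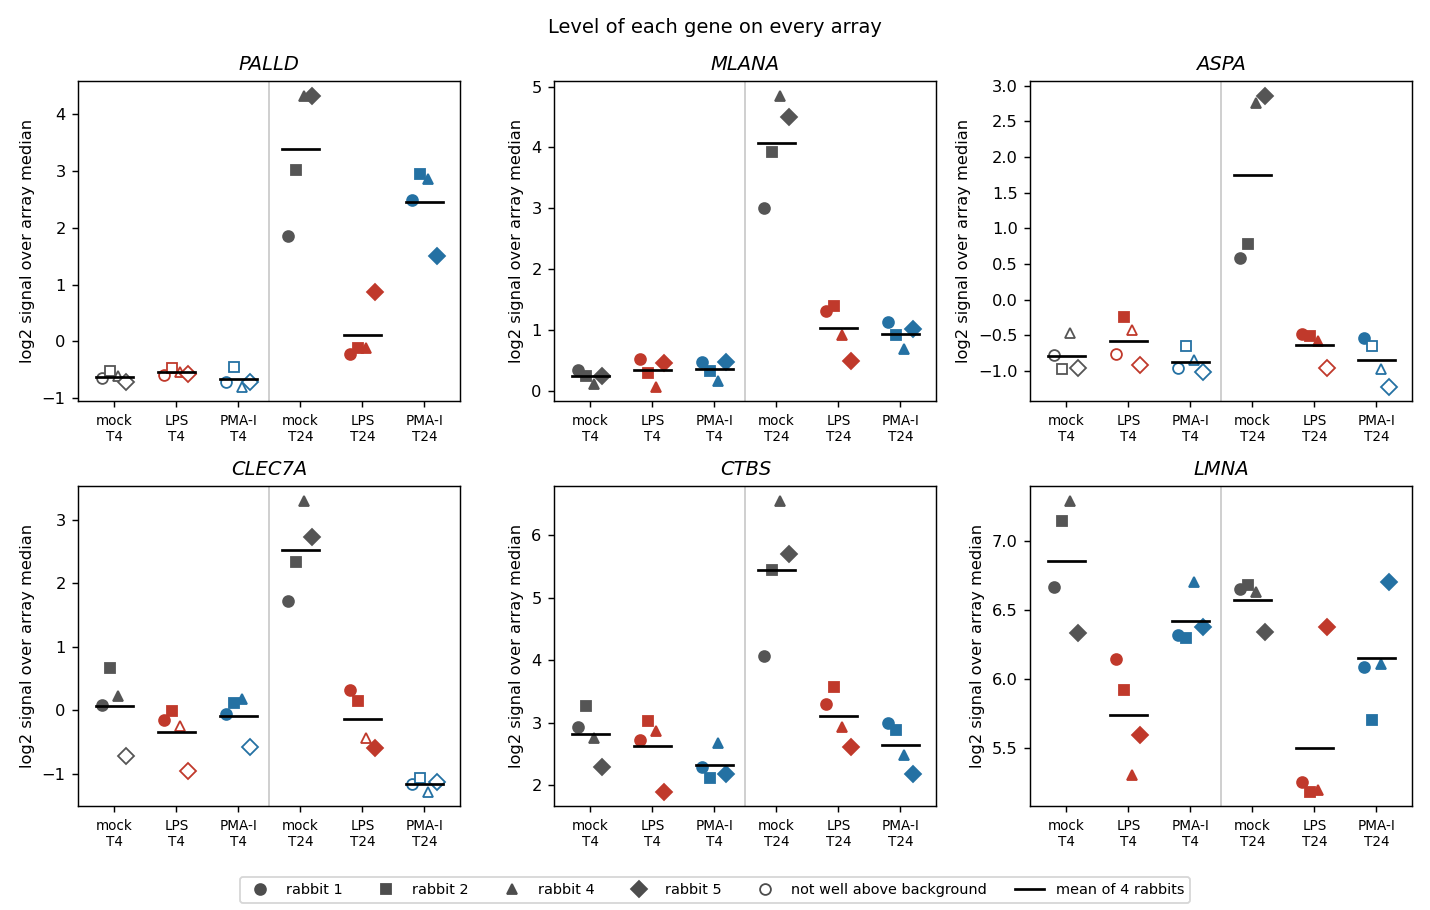
Level of each of the 6 genes (log2 signal over the array median, y axes differ between panels) on all 24 arrays, by group, with a symbol for each rabbit, open symbols where the gene was not well above background, and a line at the mean of 4 rabbits. Mock cells at T24 stand highest for PALLD, MLANA, ASPA, CLEC7A and CTBS, and LMNA is lowest in the LPS groups.

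LPS against mock at T24, the contrast that chose the genes, differed by -3.28 for PALLD, -3.04 for MLANA, -2.65 for CLEC7A, -2.38 for ASPA, -2.33 for CTBS and -1.07 for LMNA on the log2 scale, which are levels 9.75, 8.22, 6.29, 5.21, 5.04 and 2.11 times lower. All 4 rabbits showed the lower level for the first 5 genes and 3 of 4 for LMNA, where rabbit 5 differed by 0.04. Of all genes tested, 1.22% were called and 0.582% were called lower in this contrast by the limma fit described with the methods, a figure from which nothing is read here because the members were chosen on it. Ordered by this difference among genes with a symbol, PALLD stood at place 1, MLANA at 2, CLEC7A at 5, ASPA at 6, CTBS at 8 and LMNA at 55. Genes with a symbol that lay between PALLD and CTBS and were not picked were ATP6V0D2 (-2.82), DEFB1 (-2.80) and DRD1 (-2.36), and the next below CTBS was GUSB (-2.21). Each probe taken alone gave the same reading, from -3.35 to -3.24 over the 5 PALLD probes and from -3.10 to -2.94 over the 5 of MLANA.

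The rabbits differed in size more than in direction. For PALLD the difference between LPS and mock at T24 was -2.09, -3.13, -4.45 and -3.46 in rabbits 1, 2, 4 and 5, and for CTBS it was -0.77, -1.86, -3.62 and -3.09. Rabbit 1 had the smallest difference for each of the 5 genes that were higher in mock culture at T24 than at T4, and its mock level at T24 was also the lowest of the 4 rabbits for each. The mock T24 arrays of rabbits 4 and 5 lay on 1 slide and those of rabbits 1 and 2 on the other slides, so slide and rabbit cannot be told apart in the spread of that group. Within each of the 3 slides, where cultures of different rabbits were compared, LPS was lower for all 6 members, from -4.56 to -1.49 for PALLD and from -1.49 to -0.87 for LMNA.

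Against mock cells at T4 the picture was different. The LPS level at T24 was 0.80 higher for MLANA, in 4 of 4 rabbits and without overlap of the groups. For PALLD, not well above background on any mock array at T4, it was 0.42, 0.41 and 0.49 higher in rabbits 1, 2 and 4 and 1.59 higher in rabbit 5, again without overlap. Its mean was at least 1.66-fold higher, and at least 1.36-fold without rabbit 5. It differed by 0.29 for CTBS and -0.20 for CLEC7A, with overlapping groups, and for ASPA, not well above background on any mock array at T4, by 0.16 with overlap, and by -1.36 for LMNA, with 3 of 4 rabbits lower. For the first 5 genes the lower level with LPS was thus measured against mock cells of the same age, and no level below that of all early mock cultures was measured. Mock cells at T24 exceeded those at T4 by 3.83 for MLANA, 2.63 for CTBS and 2.45 for CLEC7A, which are 14.3-fold, 6.17-fold and 5.47-fold higher levels seen in 4 of 4 rabbits. PALLD and ASPA were not well above background at T4 and were at least 16.1-fold and at least 5.8-fold higher at T24, a bound set against the lowest signal called above background or the gene's own, whichever was higher on each array. LMNA differed by -0.28, with overlapping groups. The 2 groups thus did not overlap for 5 of 6 members, while the groups lay apart for 14.2% of all genes, 7.17% with the higher level at T24. By limma, another measure, 12.5% of all genes were called in this contrast and 7.41% were called higher, and nothing is read from either share because the members were chosen on the mock arrays of T24. In LPS cultures the same interval gave 0.65 for PALLD, 0.69 for MLANA, -0.05 for ASPA, 0.20 for CLEC7A, 0.48 for CTBS and -0.24 for LMNA, with groups apart for PALLD alone among the members and for 33.1% of all genes (37.6% were called by limma). Without rabbit 5 the PALLD value was 0.38. With the processed signals of the scanner software it was 1.67, with CLEC7A at 0.58 and CTBS at 0.19. These signals, also called background-subtracted below, were centred on the 75th percentile of each array, so background and normalization both differ. The LMNA value averages rabbits from -0.89 to 0.78, and became -0.58 when rabbit 5 was left out, and -0.02 or -0.07 when rabbit 1 or rabbit 2 was. The differences over time in mock culture and those of LPS from mock share the mock arrays of T24, and are given side by side for that reason. Cell type markers also differed over the culture time. The mean level per array of 15 monocyte and macrophage genes ran from 1.83 to 2.71 in mock cells at T4 and from 2.77 to 3.60 at T24, and that of 7 platelet genes from 1.70 to 2.64 and from -0.32 to 0.12. That of 7 neutrophil genes ran from 2.67 to 2.91 and from 2.99 to 3.69, and the other 5 lists overlapped between the times. In LPS cultures the monocyte list went from between 1.42 and 1.94 at T4 to between 2.68 and 3.86 at T24, the platelet list from between 1.25 and 2.23 to between -0.47 and -0.21, and the neutrophil list from between 2.01 and 2.81 to between 3.08 and 3.56, while the other 5 overlapped. The part of these markers in the members' values was not tested.

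**Figure D2:**
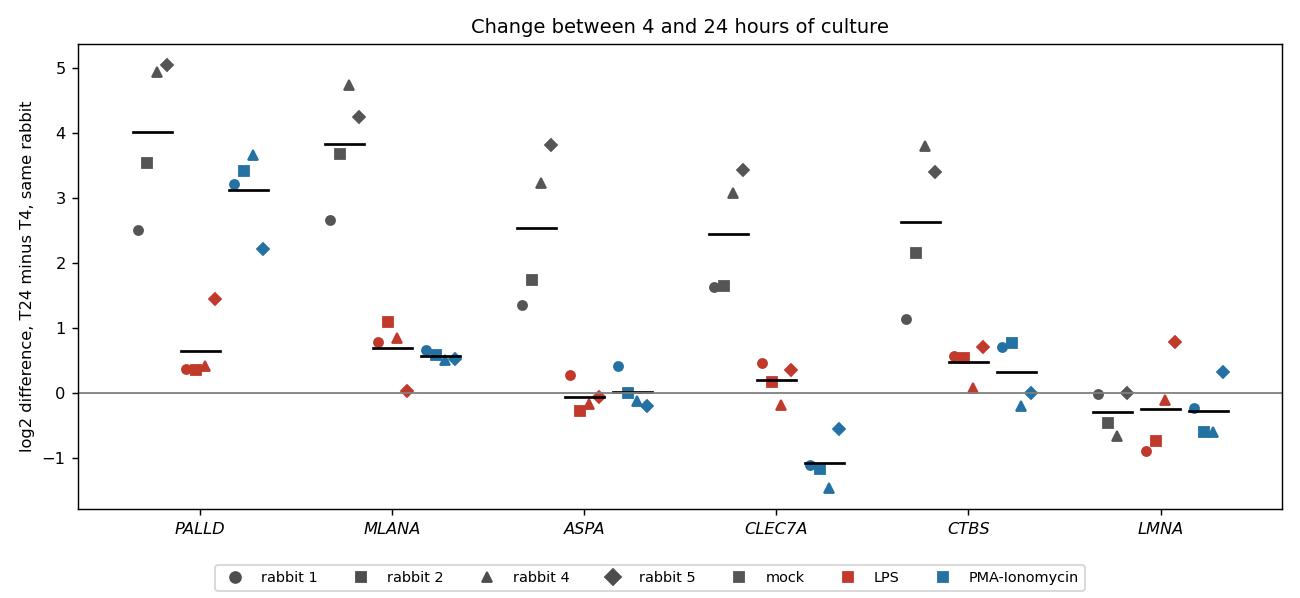
Change of each gene between T4 and T24 (log2 difference within a rabbit, y axis) in mock, LPS and PMA-Ionomycin cultures, with a symbol for each rabbit and a line at the mean of 4. Mock cultures were higher at T24 for all members but LMNA, LPS cultures stayed between -0.24 and 0.69 on average, and PMA-Ionomycin cultures rose for PALLD (3.13) and fell for CLEC7A (-1.07).

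Among the arrays that had no part in choosing the genes, LPS was compared with mock at T4 to ask whether the late difference was already present. LMNA was down-regulated by 1.12 ± 0.26 (log2 difference ± SE, n = 4 rabbits per group, limma adjusted p = 0.042), a level 2.17 times lower, in 4 of 4 rabbits and over a range from -1.99 to -0.52. It was the only member called, 1 of 6, where 1.03% of all genes were called and 0.97% were called lower. With the rabbit as a block 1231 genes were called in place of 296, and the adjusted p of LMNA was 0.0243. PALLD, MLANA and ASPA differed by 0.08 ± 0.39, 0.10 ± 0.26 and 0.21 ± 0.36, and CTBS and CLEC7A by -0.18 ± 0.36 and -0.40 ± 0.30, with adjusted p-values from limma between 0.585 and 0.939. Each SE, here and below, pools the spread within all 6 groups, the mock and LPS arrays of T24 included. For PALLD the SD at T4 was 0.06 with LPS and 0.08 in mock cells, against 1.19 in mock cells at T24. The SEs and p-values at T4 were thus not free of the arrays that chose the genes. The CLEC7A values were lower with LPS in 4 of 4 rabbits but the groups overlapped, and PALLD was at background in both. Within slides CLEC7A changed sign, with differences of 0.70, -0.40 and -1.22. The LMNA call was close to the threshold: it was lost under quantile normalization (-1.01, adjusted p = 0.0663), after normexp with quantile normalization (-1.02, 0.0718), in the deposited log2 table (-1.11, 0.0649), with background-subtracted signals (-0.90, 0.124), when only the 8 arrays were fitted (0.227), and without rabbit 1 (0.0699), rabbit 2 (0.221) or rabbit 4 (-0.83, 0.598). Within slides the LMNA difference was -0.41, -1.68 and -1.27.

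Monocyte genes moved in the same contrast. CD14 was lower with LPS at T4 by 1.55 ± 0.33 (adjusted p = 0.0373) and CSF1R, the receptor for macrophage colony-stimulating factor, by 1.44 ± 0.36 (0.0492), where CSF1R was well above background on 3 of 4 LPS arrays. These calls, like every other in this contrast, were lost when only the 8 arrays were fitted and without rabbit 2 or rabbit 4. Of the 15 measured genes of the monocyte and macrophage list 3 were lower and 0 higher at T4, and the list's mean level per array ran from 1.83 to 2.71 in mock and from 1.42 to 1.94 in LPS cultures. The dendritic cell list ran from 0.95 to 1.24 in mock and from 0.70 to 0.93 in LPS cultures at T4 with 0 of 7 genes called by limma (1 at an unadjusted p under 0.05), and the other 6 lists overlapped. The part of these markers in the LMNA result was not tested. At T24 the same list was as high with LPS as without: its mean level per array ran from 2.68 to 3.86 with LPS and from 2.77 to 3.60 in mock cells, and CD14 and CSF1R differed by -0.12 ± 0.33 and 0.01 ± 0.36. No gene of the list was below background on all arrays. Of its 15 genes 2 were higher with LPS at T24, the scavenger receptor MSR1 and VSIG4, and 1 was lower, MPEG1, which encodes a pore-forming protein of macrophages (-2.17 ± 0.41, adjusted p = 0.00491). Of 7 neutrophil genes 2 were lower with LPS at T24, CAMP (-1.93 ± 0.35) and MPO (-1.63 ± 0.25), and 1 was higher, S100A9 (2.35 ± 0.57), and the mean level of the list ran from 3.08 to 3.56 against 2.99 to 3.69 in mock cells. These 3 genes were named after their values were seen. In the lists for B cells, T cells, NK cells, platelets, erythrocytes and dendritic cells (7, 11, 3, 7, 5 and 7 genes), limma called 0 genes with LPS at T24, and 0, 2, 0, 0, 0 and 1 had an unadjusted p under 0.05. The part of these cells in the members' values was not tested.

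PMA-Ionomycin at T4 changed 22.8% of all genes and called 0 of the 6 members by limma, with 0 of 6 at an unadjusted p under 0.05. Their differences from mock were -0.05 ± 0.39 for PALLD, 0.13 ± 0.26 for MLANA, -0.08 ± 0.36 for ASPA, -0.15 ± 0.30 for CLEC7A, -0.50 ± 0.36 for CTBS and -0.43 ± 0.26 for LMNA. PALLD and ASPA were not well above background on any array of either group, so their missing calls say nothing about a fall. CTBS was lower in 4 of 4 rabbits, from -1.16 to -0.08, although the groups overlapped. For LMNA 3 of 4 rabbits were lower, and the gene passed the threshold under quantile normalization (-0.71, adjusted p = 0.044), under background correction with quantile normalization (-0.73, 0.0422) and without rabbit 5 (-0.59, 0.0425). Markers moved here as well. CD14 was lower by 3.01 ± 0.33 (limma adjusted p = 3.31e-07), and CD79B, a subunit of the B cell receptor, by 3.93 ± 0.54 (5.47e-06). The mean level per array of the B cell list ran from 2.54 to 3.09 against 3.74 to 4.39 in mock cells, that of the platelet list from 0.13 to 1.04 against 1.70 to 2.64, that of the neutrophil list from 1.68 to 2.31 against 2.67 to 2.91, and that of the dendritic cell list from 1.57 to 1.87 against 0.95 to 1.24. The monocyte list, with 4 of 15 genes lower and 0 higher, overlapped between the groups, as did the T cell, NK cell and erythrocyte lists. Whether these shifts had a part in the members' values was not tested.

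Compared directly at T4, PMA-Ionomycin and LPS differed for 26.7% of all genes and for 0 of 6 members, 1 of which, LMNA, had an unadjusted p under 0.05. LMNA was 0.68 ± 0.26 higher with PMA-Ionomycin than with LPS in 4 of 4 rabbits and without overlap of the groups (limma adjusted p = 0.0516), and it passed the threshold without dim probes (0.0359), with only the 8 arrays (0.0232), with the slide as a block (0.0467) and without rabbit 5 (0.0235). Under quantile normalization the difference was 0.30 (adjusted p = 0.43), and without rabbit 4 it was 0.44 (0.408). CLEC7A was 0.25 ± 0.30 higher with PMA-Ionomycin in 4 of 4 rabbits, with overlapping groups. PALLD was not well above background on any of these arrays, and ASPA on 1 LPS array alone, so their missing calls say nothing about a fall. Set against LPS cultures, where they ran from 3.11 to 3.97 and from 1.25 to 2.23, the B cell and platelet lists were lower with PMA-Ionomycin without overlap, the dendritic cell list was higher (0.70 to 0.93 with LPS), and the other 5 overlapped. The part of these markers in the LMNA difference was not tested.

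**Figure D3:**
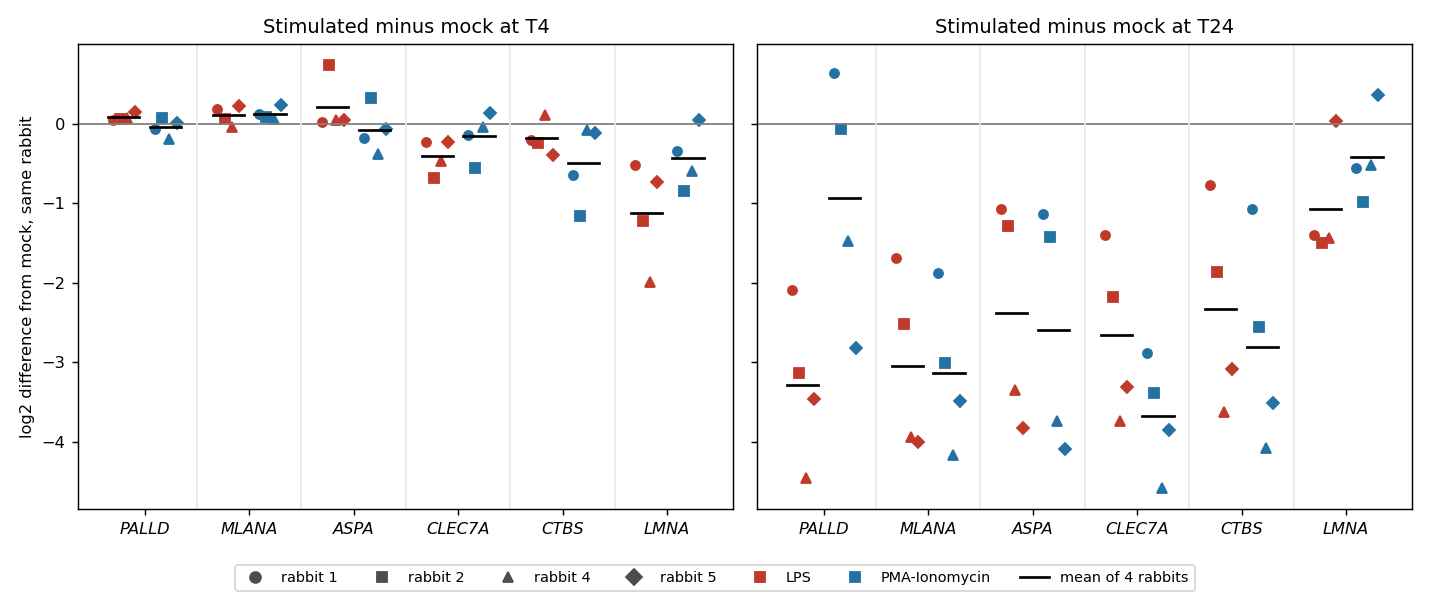
Difference of stimulated from mock cells of the same rabbit (log2, y axis) at T4 and T24 for each gene, LPS in red and PMA-Ionomycin in blue, with a symbol for each rabbit and a line at the mean of 4. At T4 LMNA with LPS has the lowest mean (-1.12), and at T24 the first 5 genes lie between -3.28 and -2.33 with LPS, while PALLD with PMA-Ionomycin spreads across 0.

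PMA-Ionomycin cultures were also compared between T4 and T24, and none of these arrays was used to choose the members. The SE again pools the spread within all 6 groups, those that chose the members included. PALLD rose by 3.13 ± 0.39 (limma adjusted p = 5.97e-07), at least 8.74-fold because it was not well above background at T4, in 4 of 4 rabbits and over a range from 2.22 to 3.66. CLEC7A fell by 1.07 ± 0.30 (adjusted p = 0.00695), at least 2.08-fold, in 4 of 4 rabbits, from -1.46 to -0.55, and was not well above background on any array at T24. These are 2 of 6 members, 1 in each direction, where 33.7% of all genes were called in this contrast, 20.3% higher and 13.4% lower, so the share of members called was near that of all genes. MLANA was 0.58 ± 0.26 higher in 4 of 4 rabbits without overlap (adjusted p = 0.0937), and ASPA, CTBS and LMNA differed by 0.02 ± 0.36, 0.32 ± 0.36 and -0.27 ± 0.26. LMNA passed the threshold under quantile normalization (-0.71, adjusted p = 0.0361) and after normexp (-0.69, 0.0458), and MLANA when only the 8 arrays were fitted (0.00605). The CLEC7A call was lost without rabbit 4 (-0.94, adjusted p = 0.0577), and the PALLD call was kept under each of the 13 alternative settings. Markers moved in this contrast too. The mean level per array of the neutrophil list went from between 1.68 and 2.31 at T4 to between 0.34 and 0.85 at T24, and that of the dendritic cell list from between 1.57 and 1.87 to between 0.44 and 0.66. The platelet list went from between 0.13 and 1.04 to between -0.08 and 0.05, the T cell list from between 0.24 and 0.62 to between 0.09 and 0.21, and the NK cell list from between -0.03 and 0.43 to between 0.68 and 1.28. The monocyte list, between 1.72 and 2.13 at T4 and between 1.60 and 1.97 at T24, overlapped, as did the B cell and erythrocyte lists. The part of these markers in the members' values was not tested.

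At T24, PMA-Ionomycin cultures differed from mock by -3.67 for CLEC7A, -3.13 for MLANA, -2.80 for CTBS, -2.59 for ASPA, -0.93 for PALLD and -0.42 for LMNA. The LMNA value was -1.03 under quantile normalization, -1.04 after normexp, -0.24 without rabbit 2 and -0.69 without rabbit 5, and that of PALLD was -1.45 without rabbit 1 and -0.30 without rabbit 5. These values are a description, since they reuse the mock arrays of T24 on which the members were chosen, and 33.6% of all genes were called in this contrast, 11.5% lower. CLEC7A was at least 12.7-fold lower, and MLANA and CTBS were 8.76 and 6.96 times lower, all in 4 of 4 rabbits and without overlap. ASPA was also lower in 4 of 4 rabbits without overlap, but it was well above background on only 1 of the 4 PMA-Ionomycin arrays, and its difference was -5.06 with background-subtracted signals. PALLD went from 0.63 in rabbit 1 to -2.82 in rabbit 5, and the groups overlapped. Over all genes these groups lay apart for 32.2%, 11% with the lower level with PMA-Ionomycin, and nothing is read from that share. Set against LPS cultures of the same time, PMA-Ionomycin cultures were 2.35 higher for PALLD and 1.02 lower for CLEC7A without overlap, and 0.09, 0.21 and 0.47 lower for MLANA, ASPA and CTBS and 0.65 higher for LMNA with overlap. Markers of other cells also moved here: 9 of 15 monocyte genes were lower and 2 higher with PMA-Ionomycin at T24, and their mean level per array ran from 1.60 to 1.97 against 2.77 to 3.60 in mock cells. CD14 differed by -3.27 ± 0.33 and CSF1R by -3.29 ± 0.36, both still well above background on all 4 arrays. Of 7 neutrophil genes 6 were lower, and their mean level ran from 0.34 to 0.85 against 2.99 to 3.69. In the other lists 4 of 7 B cell genes were lower and 1 higher, 2 of 11 T cell genes lower and 1 higher, 3 of 3 NK cell genes higher, 2 of 7 platelet genes higher, 1 of 5 erythrocyte genes lower, and 3 of 7 dendritic cell genes lower and 1 higher. The part of these markers in the members' values was not tested.

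Lists of related genes, leaving the members out, placed each gene among its kin. Of 21 measured C-type lectin and Dectin-1 signalling genes, 0 were called at T24 with LPS by limma (0 at an unadjusted p under 0.05), and the list's median difference was -0.01 where that of all genes was -0.03. CLEC4E, which encodes the C-type lectin Mincle, differed by 0.44 ± 0.31, MRC1, the mannose receptor, by 0.58 ± 0.56, and TYROBP, the adaptor DAP12, by -0.32 ± 0.21. With PMA-Ionomycin at T24, 10 of the 21 were lower and 0 higher, the largest fall being that of TYROBP (-3.01 ± 0.21, adjusted p = 7.46e-11), with CLEC4E at -2.20 ± 0.31 and MRC1 not called (-1.06 ± 0.56).

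Of 24 lysosomal glycosidases and glycan-breakdown enzymes, 1 was lower and 1 higher with LPS at T24 (5 at an unadjusted p under 0.05). The lower one was GUSB, beta-glucuronidase (-2.21 ± 0.24, adjusted p = 1.31e-05). HEXA, a lysosomal hexosaminidase gene, differed by -0.31 ± 0.25 and CHIT1, chitotriosidase, by 0.70 ± 0.44, and neither passed. With PMA-Ionomycin at T24, 20 of the 24 were lower and 0 higher, and the list's median was -1.02 where that of all genes was 0.03. PSAP, the precursor of saposins, differed by -3.05, CHIT1 by -2.82 and HEXA by -2.25, all called lower.

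Among 28 measured MITF and TFE family, melanosome and osteoclast-type target genes, 11 had an unadjusted p under 0.05 with LPS at T24. By limma, 2 were called lower and 0 higher. They were ATP6V0D2, a subunit of the vacuolar proton pump (-2.82 ± 0.35, adjusted p = 5.25e-05), and OSTM1, a lysosomal membrane protein named here after its value was seen (-1.27 ± 0.24, 0.00498). The factor MITF itself differed by -0.62 with LPS at T24 and was not called, while at T4 it was lower with LPS (-1.33 ± 0.28, adjusted p = 0.0337, a call lost without rabbit 2 or rabbit 4 and with only the 8 arrays) and with PMA-Ionomycin (-1.93 ± 0.28, 1.23e-05). TFEC had a mean level of 4.13 with and without LPS, while ACP5 (tartrate-resistant acid phosphatase) differed by -0.92 (0.0785), and the melanosome gene PMEL by -0.09. ATP6V0D2 had mean levels of -0.56 in mock cells at T4, 5.91 in mock cells, 3.09 with LPS and 2.78 with PMA-Ionomycin at T24, and it was higher with PMA-Ionomycin than in mock cells at T4 (2.51 ± 0.35, adjusted p = 7.89e-06), when it was well above background on 1 of 4 mock arrays and on 4 of 4 with PMA-Ionomycin. With PMA-Ionomycin, 12 of the 28 were lower and 4 higher, from ATP6V0D2 (-3.13 ± 0.35) to DCSTAMP (1.23 ± 0.38), with MITF at -1.40 and TFEC at -1.61.

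Of 31 actin-associated genes and relatives of palladin, 0 were lower and 1 was higher with LPS at T24. That gene was ACTA2, smooth muscle actin, which rose by 2.15 ± 0.20 (adjusted p = 3.23e-06), and which with PMA-Ionomycin at T24 was not well above background and was at least 10.5-fold lower than in mock cells (5.75e-12). With LPS at T24, 12 of the 31 had an unadjusted p under 0.05 by limma, where 3132 of 28871 genes did. The list's median difference was 0.22 where that of all genes was -0.03. The closest relatives of palladin, MYPN and MYOT, were not well above background on any array. ACTN1, alpha-actinin, a binding partner of palladin, differed by 0.14 with LPS and was lower with PMA-Ionomycin (-1.08 ± 0.25), where 9 of the 31 were lower and 2 higher, RDX (radixin) by the largest step (0.88 ± 0.16). Of 15 nuclear lamina and envelope genes, 0 were called with LPS at T24 and 2 had an unadjusted p under 0.05, with LBR, the lamin B receptor, at 0.45 and EMD, emerin, at 0.43. LMNB1, lamin B1, differed by 0.345 ± 0.103 and was not called (limma adjusted p = 0.123). It was well above background on 0 of 4 mock and 4 of 4 LPS arrays at T24, and on 4 of 4 of each at T4. With PMA-Ionomycin 6 of the 15 were higher and 3 lower, BANF1, a chromatin-binding partner of the lamina, rising by 1.65 ± 0.15. Of 13 enzymes of N-acetylaspartate and acylase metabolism, 0 were called with LPS (0 at an unadjusted p under 0.05) and 1, the asparaginase-like ASRGL1, rose with PMA-Ionomycin (1.67 ± 0.31).

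At T4, LPS lowered 5 of the 24 lysosomal enzymes, 2 of the 21 lectin-related genes, 2 of the 28 MITF-related genes, 3 of the 31 actin-related genes and 0 of the lamina and acylase lists (6 and 2 genes at an unadjusted p under 0.05), and raised 0 in any, where 0.97% of all genes were called lower. These 12 calls became 0 to 5 under quantile normalization, normexp, the deposited table, processed signals or only the arrays of the comparison, and 0 to 6 without 1 rabbit (0 without rabbit 2 or rabbit 4). The list count with the rabbit as a block, where more of all genes were called, is not given here. The corresponding list medians were -0.37, -0.17, 0.02, -0.28, -0.23 and 0.02 beside 0.06 for all genes. Of the 15 monocyte and macrophage markers 3 were called lower in the same contrast, and their part in these list counts was not tested.

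**Figure D4:**
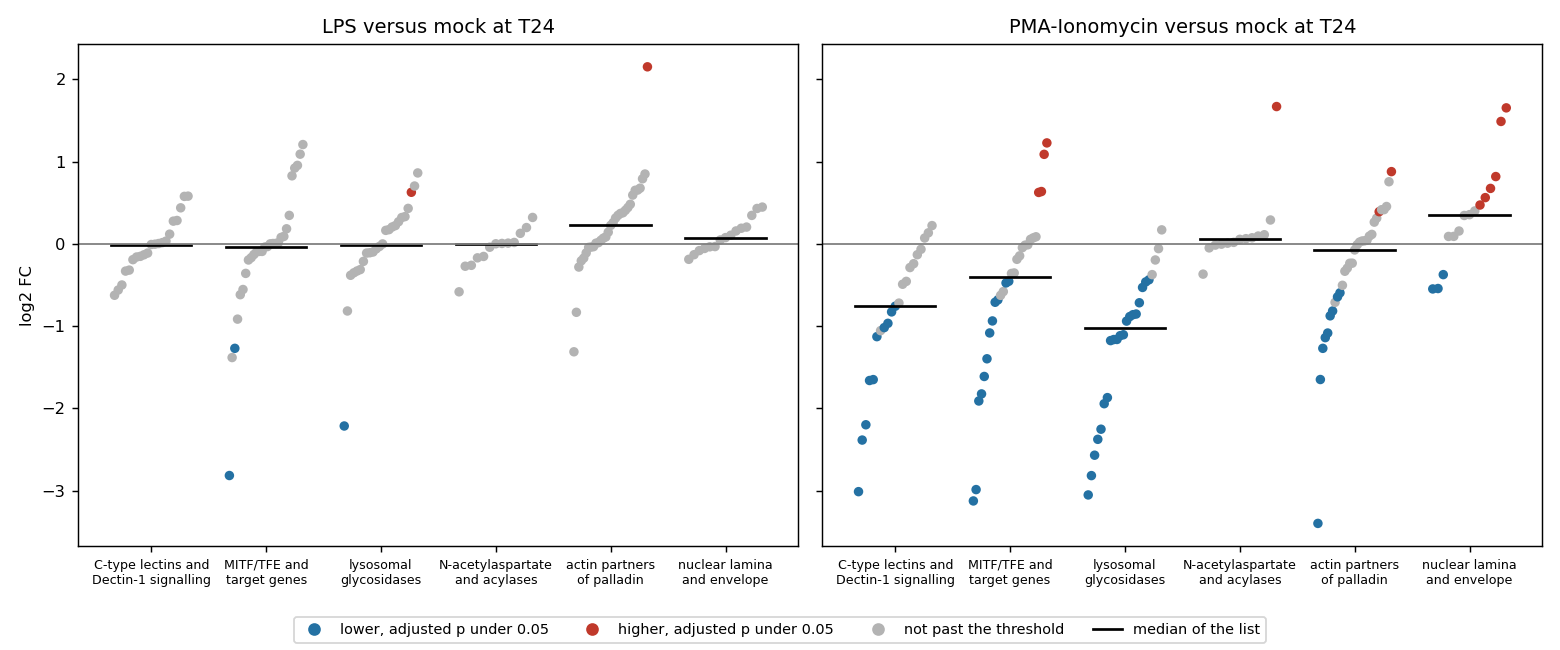
Log2 FC against mock at T24 of every measured gene of the 6 lists, members left out, for LPS and PMA-Ionomycin, with genes ordered by value within a list, coloured where the adjusted p was under 0.05, and a line at the list's median. With LPS 5 genes pass over all lists (ATP6V0D2, OSTM1, GUSB and ACTA2 among them), and with PMA-Ionomycin 20 of 24 lysosomal enzymes are lower.

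The genes most like each member were taken from 5973 genes with a symbol that were well above background on at least 12 arrays, by Pearson correlation over the 24 arrays, which share rabbits and treatments. For PALLD they were VAT1, CGRRF1 and ST3GAL4 (0.91, 0.91 and 0.89), and over the 16 arrays other than LPS and mock at T24 the values were 0.85, 0.95 and 0.81. For MLANA they were GUSB, RNF128 and NIN (0.92, 0.90 and 0.89), and for ASPA AOX1, GUSB and NCK1 (0.92, 0.86 and 0.83), of which NIN alone kept a value above 0.5 over the 16 arrays (0.79). For CLEC7A they were MARCHF3, MPEG1 and CAMP (0.92, 0.91 and 0.90, or 0.85, 0.73 and 0.78 over 16 arrays), and for CTBS NCK1, MPEG1 and GUSB (0.93, 0.91 and 0.91, or 0.68, 0.61 and 0.34). LMNA had no close match, the nearest being CAPN2, CAST and FAU (0.69, 0.64 and 0.61).

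Between the members, MLANA correlated over 24 arrays at 0.93 with CTBS, 0.92 with ASPA and 0.81 with PALLD, and LMNA at 0.12 to 0.32 with the other 5. Over the 16 arrays outside LPS and mock at T24, MLANA correlated at 0.82 with PALLD, at -0.08 with CTBS and at -0.26 with ASPA, and PALLD at -0.74 with CLEC7A. Deviations of single cultures from their group mean correlated from 0.38 (PALLD and CLEC7A) to 0.86 (CLEC7A and CTBS) among the first 5 genes, and for LMNA they lay between -0.26 and 0.09 with the others. All these values come from the same 24 arrays and describe them.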

How the data were processed

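RNA of 24 PBMC cultures (4 rabbits, 6 groups) was hybridised by the authors to one-colour Agilent arrays. The deposited scanner files hold Cy3 intensity per spot, quantified with Agilent Feature Extraction 10.7.3.1 as listed in the submitters' processing notes, on coordinates of oryCun2. The deposited log2 table equals the log2 median intensity less the average of every spot on that array (largest difference 5e-09) and served as an alternative. After the authors' methods, log2 median intensities were centred on the median of 61657 non-control spots. In addition, outlier spots (280 to 370 per array) were left out. Spots were averaged to 42089 probes and 28871 genes. Names came from RefSeq accessions or gene numbers (mOryCun1.1 table) and from the Ensembl names in the study's list of immune genes added to the array. Others came from the files, and that of LMNA from the description. Spots well above background set the precision, and no depth applies to arrays.

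limma 3.58.1 (R 4.3.3) fitted 1 mean per group over all 24 arrays, with Benjamini-Hochberg adjustment over all genes and a threshold of 0.05. Same-numbered samples come from the same animal, and their deviations from group means correlated at a median of 0.228 (60 pairs) against -0.0746 for different rabbits (180 pairs). Scripts were tested on simulated data. The members and gene lists were chosen with earlier results of these data known. Genes named besides the members were the 3 most correlated with each, and from each list called genes with the largest rise and fall at T24 and near relatives. These were at most 6 per list, apart from OSTM1, which was named after its value was seen. Marker genes and genes ranked next to the members with LPS at T24 were also named. Alternatives covered normalization, background correction, dim probes, outlier spots, the arrays fitted, rabbit or slide as a block, single probes and leaving out each rabbit. Contrasts sharing arrays with LPS or mock at T24 were not tested for members, although the spread used in the other tests came from all 24 arrays. Some genes of the lists entered the counts and are not reported by name here.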

Additional observations from a re-analysis of the deposited data

Results flagged for a closer look

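In 36 groups of 4 rabbits searched (6 genes by 6 groups), 3 held an outlying array by Dixon's ratio, the gap to the nearest array over the range of the group, where chance gives about 1 in 20. All 3 are cultures of rabbit 5 at T24. PALLD with LPS was at 0.87 in rabbit 5 and between -0.23 and -0.11 in the others (ratio 0.893). LMNA with LPS was at 6.38 against 5.18 to 5.25 (ratio 0.944), and LMNA in mock cells was at 6.34 against 6.63 to 6.68 (ratio 0.853). Without rabbit 5 the difference between LPS and mock at T24 was -3.23 for PALLD and -1.45 (-1.07 with it) for LMNA.

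For 4 genes every rabbit moved one way in one setting and the opposite way in another, and these differences were not tested because they use mock or LPS arrays of T24. PALLD and ASPA were higher with LPS than mock in 4 of 4 rabbits at T4 (by 0.05 to 0.14 and by 0.02 to 0.73) and lower in 4 of 4 at T24, a difference between the effects of -3.37 and -2.59 on the log2 scale, with PALLD well above background on no T4 array and ASPA on 0 of 4 mock and 1 of 4 LPS arrays at T4, so that their signs at T4 are those of signals at background. MLANA was higher with PMA-Ionomycin than mock in 4 of 4 rabbits at T4 (by 0.06 to 0.24) and lower in 4 of 4 at T24, a difference of -3.26. CLEC7A was higher at T24 than at T4 in 4 of 4 mock cultures and lower in 4 of 4 PMA-Ionomycin cultures, a measured difference of -3.52 that is no exact size, because CLEC7A was well above background on 0 of 4 PMA-Ionomycin arrays at T24.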

How the results depend on the processing

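The difference of LPS from mock at T24 kept its direction for all 6 members under all 13 alternative settings (78 of 78 values). Sizes were larger with the processed signals, which are background-subtracted and centred on the 75th percentile (-4.18 for PALLD, -3.71 for ASPA). With these signals CLEC7A and ASPA with PMA-Ionomycin at T24 differed from mock by -7.13 and -5.06, and PALLD and ASPA in mock cells over time by 6.16 and 4.81. LMNA with PMA-Ionomycin at T24 differed from mock by -1.03 under quantile normalization and -1.04 after normexp. For LPS at T4 the number of calls depended on the setting. Its 296 called genes became 114 under quantile normalization, 105 after normexp correction with quantile normalization, 71 in the deposited log2 table, 8 with processed signals, 0 with only the arrays of the comparison and 0 to 119 without 1 rabbit (0 without rabbit 2 or rabbit 4). Of the members, 0 rather than 1 were then called under these 5 settings, and 0 to 1 without 1 rabbit. The cause was not tested, apart from fewer arrays where arrays were left out. PMA-Ionomycin against mock at T4 gave 1 member in place of 0 under quantile normalization and after normexp, and 0 to 1 without 1 rabbit. PMA-Ionomycin against LPS at T4 gave 1 in place of 0 without dim probes, with only the arrays of the comparison and with slide as a block, and 0 to 1 without 1 rabbit. PMA-Ionomycin at T24 against T4 gave 1 to 2 members without 1 rabbit, the main count being 2.

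With the rabbit as a block, which the shared animals justify, 1231 genes were called for LPS at T4 in place of 296, and no call of a member changed (LMNA adjusted p = 0.0243 for LPS at T4, CLEC7A 0.00271 for PMA-Ionomycin at T24 against T4, both limma). Counts over the 6 gene lists, and PALLD with LPS at T24 against mock at T4 without 1 rabbit (0.44 to 0.83), were added after seeing the data. The 12 list genes called with LPS at T4 became 5 under quantile normalization, 4 after normexp, 5 in the deposited table, 1 with processed signals, 0 with only the arrays of the comparison and 0 to 6 without 1 rabbit. Their count with the rabbit as a block is not given here. The 5 list genes called with LPS at T24 became 3 with only the arrays of the comparison, 8 with the rabbit as a block and 3 to 7 without 1 rabbit (3 without rabbit 2 or rabbit 4).

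Under the alternative settings and in single probes, signs changed only among small values that were not called or were close to background. Within slides, which compare different rabbits, larger values changed sign too, such as PALLD with PMA-Ionomycin against mock at T24 (-1.84, 1.09 and -0.83). PALLD with LPS at T4 was -0.032 under quantile normalization, and with PMA-Ionomycin at T4 -0.085 to 0.002 without 1 rabbit and 0.122 from 1 of its probes. ASPA with PMA-Ionomycin at T4 was -0.21 to 0.024 without 1 rabbit. Its change from T4 to T24 was -0.033 in the deposited table and -0.105 to 0.099 without 1 rabbit in PMA-Ionomycin cultures, and 0.781 with processed signals in LPS cultures. MLANA between PMA-Ionomycin and LPS at T4 was -0.027 under quantile normalization, -0.137 with processed signals, -0.022 after normexp, -0.06 in the deposited table, -0.024 with slide as a block, -0.001 to 0.05 without 1 rabbit and -0.049 from 1 probe. Signal over background limits PALLD and ASPA at T4 and CLEC7A and ASPA after PMA-Ionomycin at T24.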
